A study of Mus musculus with 4 samples.

Results

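The cytochrome P450 superfamily was examined here as 94 protein-coding mouse genes, of 21938 protein-coding genes in all, whose symbols follow the Cyp pattern of number, letter and number. P450 enzymes are haem monooxygenases. Families 1 to 3 mostly oxidise drugs and other foreign compounds, family 4 hydroxylates fatty acids, and most members of the higher families make or break down steroids, bile acids, retinoic acid and vitamin D. Many of them are best known from liver, and a few, such as Cyp46a1, act in neurons. In rodents families 2, 3 and 4 have expanded into long runs of neighbouring copies. A tandem cluster was taken as 2 or more genes of the same family number with at most 200 kb between neighbours. By that rule 70 genes lay in 14 clusters, 8 of them with 4 or more genes and 6 of them pairs, and 24 genes were single. The pattern leaves out 6 other gene symbols that begin with Cyp, Cypt symbols aside, among them Cyp51. A tandem copy left out this way could split a cluster or fall in a flank. With gaps of up to 500 kb, the span from Cyp3a57 to Cyp3a59 held 2 other protein-coding genes. That from Cyp4x1 to Cyp4b1 held 3, that from Cyp4f39 to Cyp4f13 held 4 and that from Cyp2s1 to Cyp2t4 held 6. Whether these are P450 copies was not examined.

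The measurement was chromatin immunoprecipitation and sequencing of CTCF, a zinc finger protein that binds a long sequence motif and with cohesin marks insulators and the anchors of chromatin loops. The tissue was left cerebral cortex from female B6CASTF1/J mice aged 2 months, a first-generation hybrid strain. There were 2 pools, pool I and pool J, each joining 4 cortex biosamples and read out as 2 technical libraries, with no treatment, no second genotype and no other antibody. The libraries of a pool were merged before peaks were called, so values exist per pool and not per library, the read depth is unknown, and with 1 condition and 2 pools no test between groups was possible. All comparisons below are therefore counts, medians and densities set beside those of other genes. In whole cortex, binding in fewer cells and weaker binding in each cell cannot be told apart, and no expression was measured against which the cell types of the tissue could be checked.

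The main peak list, called conservative, holds 44672 peaks that passed an irreproducible discovery rate (IDR) of 0.05 between both pools. Pool I alone gave 82131 peaks, pool J alone 52658 and the pooled reads, called the optimal list, 50827. A peak was placed by its summit. The height of a peak is given by the signal value that the peak caller wrote, whose unit is not known, and by its percentile among all conservative peaks. Coordinates are those of mm10, counted from 1, and sequences are from the C57BL/6J reference, not from the CAST/EiJ parent.

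CTCF was called at few P450 promoters. A conservative summit lay within 1000 bp of a transcription start site (TSS) in 5 of 94 P450 genes (5.32%), against 20.8% of all protein-coding genes. Among clustered genes it was 1 of 70 (1.43%), and among single genes 4 of 24 (16.7%). The 5 genes were Cyp1b1, Cyp21a1, Cyp2r1, Cyp27b1 and Cyp1a1, and each of them also had a promoter summit in the optimal, pool I and pool J lists.

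Cyp1b1 and Cyp1a1 oxidise polycyclic aromatic compounds and are induced through the aryl hydrocarbon receptor. The summit at Cyp1b1 (chromosome 17, position 79715754) was 693 bp from the TSS. It had a signal value of 332 in pool I and 185 in pool J, and the joint signal of 517 stood at percentile 85.4. At Cyp1a1 (chromosome 9, position 57688270) the summit was 342 bp from the TSS, with signal values of 67.2 in pool I and 31.7 in pool J. Its joint signal of 96.8 stood at percentile 8.09, so that these related genes lay near opposite ends of the range. Cyp1a1 was the one clustered gene among the 5, paired with its neighbour Cyp1a2.

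Cyp21a1, a steroid hydroxylase of the adrenal cortex, had its summit 842 bp from the TSS (chromosome 17, position 34805403), with signal values of 115 in pool I and 56.2 in pool J and a joint signal of 174 at percentile 33.2. The vitamin D pathway supplied the other two. Cyp2r1, which carries out the first hydroxylation of vitamin D, had a summit 248 bp from its TSS (chromosome 7, position 114562642), at 102 in pool I and 32.3 in pool J. Cyp27b1, which makes the active hormone, had one 579 bp from its TSS (chromosome 10, position 127048829), at 83.4 in pool I and 34.7 in pool J. The joint signals of 135 at Cyp2r1 and 119 at Cyp27b1 stood at percentiles 22.9 and 16.9. The Cyp27b1 peak did not overlap a pool J peak, although the pool J list had another summit within 1000 bp of that TSS. Of the 5 promoter peaks only that of Cyp1b1 was above the median of all conservative peaks.

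A match to the CTCF motif was looked for within 50 bp of each summit, using a weight matrix of 20 bases trained on 1000 high-signal conservative peaks from autosomes with odd numbers, whose most frequent bases read GTGGCCACCAGGGGGCGCTA. Peaks at Cyp2r1 and Cyp27b1 held no match at the threshold that 1% of flanking windows pass. The other promoter sites did, and are shown 5′ to 3′ on the strand of the motif, with the match in capitals and 5 bases on each side.
Cyp1b1 promoter, chr17:79715726-79715755, reverse strand: cacgcGTGTCCAGCAGGTGGCAGAGttcct
Cyp21a1 promoter, chr17:34805381-34805410, reverse strand: actctGCGGCCAGAAGAGGGCAGTGgaact
Cyp1a1 promoter, chr9:57688252-57688281, forward strand: ccacgGGGGCCAGAAGGGGGCATCAaattc
The Cyp21a1 site also passed a stricter threshold, met by 0.1% of flanking windows.

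A further 8 P450 genes had a promoter summit in some lists and not in the conservative one. Cyp20a1, Cyp27a1, Cyp2ab1, Cyp39a1, Cyp2u1 and Cyp2j9 had one in pool I alone. Cyp46a1, the enzyme that starts cholesterol turnover in neurons, had one in pools I and J. Its nearest conservative summit lay 1192 bp from the TSS, just outside the window, with a joint signal of 592 at percentile 95.5. Cyp24a1, which breaks down vitamin D, had a promoter summit in the optimal, pool I and pool J lists. The count thus came to 13 P450 genes in pool I, where 37.4% of all protein-coding genes had a promoter summit, to 7 in pool J (25.2%) and to 6 in the optimal list (23.8%). Within pool I the split was 2 clustered and 11 single genes. At an IDR of at most 0.01, a promoter summit was present in 5 P450 genes, against 19.8% of all protein-coding genes, a summit in the gene in 28, against 44.7%, and one within 50 kb in 65, against 86.0%. With a window of 500 bp in place of 1000 bp the promoter count was 2 (15.7% of all genes), and with 5000 bp it was 15 (38.8%). The share of clustered genes was below the share of all protein-coding genes in each of the 4 lists, while that of single genes was 45.8% in pool I, above the share of all genes there.

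**Figure D1:**
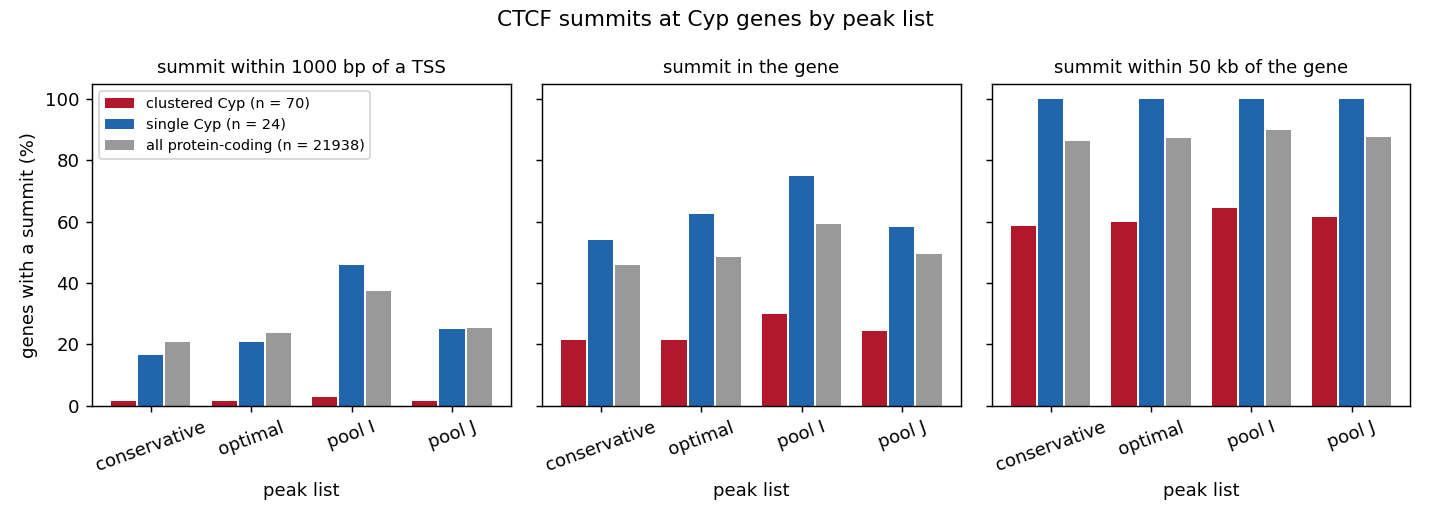
Percentage of genes with a CTCF summit within 1000 bp of a TSS (left), in the gene (middle) and within 50 kb of the gene (right), by peak list, for clustered P450 genes (red), single P450 genes (blue) and all protein-coding genes (grey). Clustered genes were lowest in every panel and list, at 1.43% for promoters and 58.6% within 50 kb in the conservative list, and all 24 single genes had a summit within 50 kb in each list.

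P450 promoters differ from other promoters in base composition, which moved with these shares. The median ratio of observed to expected CpG dinucleotides within 500 bp of the TSS was 0.134 in clustered genes, 0.283 in single genes and 0.552 in all protein-coding genes. A ratio of 0.6 or more was found at 1 of 70 clustered genes (Cyp26a1), 7 of 24 single genes and 45.9% of all protein-coding genes. Among genes under that ratio a promoter summit was present in 4 of 86 P450 genes (4.65%), against 12.4% of all protein-coding genes, and at or over it in 1 of 8 (12.5%), against 30.7%. The lower group joins 1 of 69 clustered genes (1.45%) and 3 of 17 single genes (17.6%), so that single genes of low ratio were above the 12.4% of all genes. The part of CpG content in the promoter counts was not tested further.

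Inside the genes, a conservative summit lay in 28 of 94 P450 genes (29.8%), against 45.8% of all protein-coding genes. It lay in 15 of 70 clustered genes (21.4%) and in 13 of 24 single genes (54.2%), with 9.48 summits per Mb of gene body in clustered genes, 28.0 in single genes and 22.4 in all protein-coding genes. Gene length had a median of 22857 bp in clustered genes, 18815.5 bp in single genes and 17425 bp in all protein-coding genes. Within bins of length the picture was uneven. Below 10 kb a summit was present in 0 of 18 clustered genes and 3 of 5 single genes, against 16.3% of all protein-coding genes. At 10 to 30 kb it was present in 12 of 25 clustered genes (48.0%) and 7 of 15 single genes (46.7%), against 44.1%. Those 12 included Cyp4f17, Cyp4f16, Cyp4f37, Cyp4f15, Cyp4f14 and Cyp4f13, of a subfamily described below, and the share without that subfamily was not computed. At 30 to 100 kb it was present in 3 of 27 clustered genes (11.1%) and 1 of 2 single genes, against 69.7%. The share of the clustered genes was thus below that of all genes in the shortest and the longest bin they fill. It was not at 10 to 30 kb, where the Cyp4f genes named above are part of the count. Over all lengths a summit lay in 7 of the 8 clustered Cyp4f genes and in 8 of the 62 other clustered genes (12.9%). In pool I a summit lay in 39 P450 genes, against 59.2% of all protein-coding genes, in pool J in 31 (49.4% of all) and in the optimal list in 30 (48.6% of all).

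Of the 188 conservative peaks within 50 kb of a P450 gene, 37 lay in one. These were 28 in introns, 5 in untranslated exons, 1 in a coding exon, that of Cyp2j6, and 3 at a promoter. Cyp39a1, which hydroxylates an oxysterol on the way to bile acids, held the most summits with 3. Cyp46a1, Cyp4f39, Cyp2u1, Cyp2w1, Cyp26b1, Cyp2f2 and Cyp19a1 held 2 each.

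Several genes of steroid and sterol metabolism held intronic sites. In Cyp39a1 the 3 summits had signal values of 336 in pool I and 188 in pool J, of 315 in pool I and 179 in pool J, and of 73.0 in pool I and 23.4 in pool J. The weakest of them was thus at percentile 8.36 and the strongest at percentile 86.1. In Cyp19a1, the aromatase that makes oestrogens, both sites were of middling strength, at 271 in pool I and 146 in pool J and at 252 in pool I and 130 in pool J. Cyp46a1 had one site at 235 in pool I and 109 in pool J and a weaker one at 82.4 in pool I and 34.4 in pool J. Counted over role lists, a promoter summit was present in 1 of 6 genes of steroid hormone synthesis and a summit in the gene in 3. Of the 6 genes of cholesterol and bile acid metabolism it was 0 at promoters and 3 in the gene, and of the 3 genes of vitamin D metabolism 2 and 3. Of the 3 retinoic acid hydroxylases none had a promoter summit and Cyp26b1 alone had one in the gene. Over all protein-coding genes the shares were 20.8% at promoters and 45.8% in the gene, and lists of 3 to 6 genes are too short to be read against them.

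Cyp26b1, which clears retinoic acid, held one of the 5 strongest peaks found within 50 kb of any P450 gene, in an intron (chromosome 6, position 84590515). Its signal was 385 in pool I and 254 in pool J, and its joint signal of 633 stood at percentile 98.5. Another of the 5 was in the 3′ untranslated region of Cyp4f37, described below. The remaining ones lay in introns of neighbouring genes. One was in 3110082I17Rik at 7304 bp from Cyp2w1, with a joint signal of 675 at percentile 99.7. One was in March9 at 5370 bp from Cyp27b1, with 651 at percentile 99.2, and one in Csk at 47503 bp from Cyp1a2, with 643 at percentile 98.9. The March9 peak did not pass an IDR of at most 0.01. Its scaled IDR score was 585, where the lowest in the list was 540. The motif in Cyp26b1 lay on the strand of the gene, and its site is shown as the strongest inside a single P450 gene.
Cyp26b1 intron, chr6:84590491-84590520, reverse strand: taaaaCTAACCACCAGGTGGGGTTCcaagg

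Farther out, a conservative summit lay within 50 kb of 65 of 94 P450 genes (69.1%), against 86.4% of all protein-coding genes. It did so for 41 of 70 clustered genes (58.6%) and for all 24 single genes. Clustered genes had between 0 and 8 summits within 50 kb, with a median of 1, and single genes between 1 and 9, with a median of 4.5, against a median of 4 for all protein-coding genes. The median distance from a TSS to the nearest summit was 41490 bp in clustered genes, 9641 bp in single genes and 8710 bp in all protein-coding genes. More than 100 kb separated the TSS from any summit in 20 clustered genes and in 0 single genes. In pool I a summit lay within 50 kb of 69 P450 genes (89.8% of all protein-coding genes had one), in pool J of 67 (87.5%) and in the optimal list of 66 (87.4%). By family, a summit lay within 50 kb of 3 of 3 genes of family 1, 29 of 49 of family 2, 2 of 7 of family 3, 13 of 17 of family 4 and 18 of 18 of families 7 and above.

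The 29 genes with no summit within 50 kb were all clustered, and 25 of them had none in any of the 4 lists. They comprised 11 of the 14 genes of the Cyp2c cluster, all 4 genes from Cyp3a44 to Cyp3a59, 4 genes of the cluster from Cyp2b23 to Cyp2t4, 3 of that from Cyp2s1 to Cyp2a4, 3 of that from Cyp4a14 to Cyp4b1, 2 of the Cyp2d cluster, and Cyp3a16 and Cyp4a29. Cyp2c38, in the middle of its cluster, was the farthest, with its TSS 467165 bp from the nearest summit.

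Across the 14 clusters 30 summits fell in 4.38 Mb of cluster span, or 6.85 per Mb. In the 50 kb flanks of the same clusters there were 43 summits, or 30.7 per Mb, and chromosomes 1 to 19 and X averaged 17.5. Single P450 genes had 28.0 per Mb in the gene and 39.6 in their 50 kb flanks. Density was lower inside than in the flanks for 11 of 14 clusters, and higher for the cluster from Cyp4f39 to Cyp4f15 and for the pair of Cyp3a57 and Cyp3a16. The 8 clusters of 4 or more genes had 6.0 summits per Mb inside and 27.5 in the flanks, and the 6 pairs 15.8 inside and 35.0 in the flanks. In pool I the densities were 12.6 inside and 47.9 in the flanks, and in pool J 7.77 and 32.1. The contrast between span and flank was thus present in each pool.

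**Figure D2:**
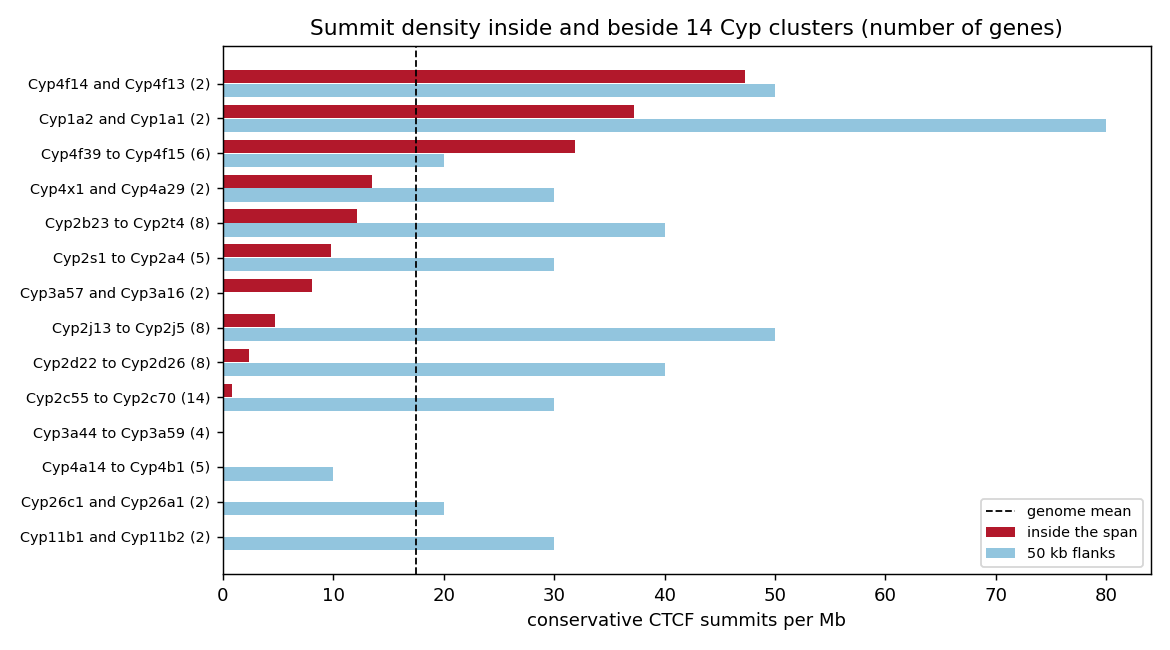
Conservative CTCF summits per Mb inside each of the 14 P450 clusters (red) and in its 50 kb flanks (light blue), with the number of genes in brackets and the mean of chromosomes 1 to 19 and X as a dashed line at 17.5. In 3 clusters the span exceeds that mean, the pair of Cyp4f14 and Cyp4f13, the pair of Cyp1a2 and Cyp1a1, and the cluster from Cyp4f39 to Cyp4f15.

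The Cyp2c cluster, whose enzymes metabolise drugs and arachidonic acid, was the largest, with 14 genes in 1180 kb (chr19:39007019-40187333) and no other protein-coding gene. It held 1 summit, or 0.847 per Mb, between Cyp2c69 and Cyp2c37 (position 39930240). That summit had no motif match, with a signal of 112 in pool I and 38.6 in pool J and a joint signal at percentile 28.0. No conservative or optimal summit lay in any Cyp2c gene of the cluster. In pool I and in pool J alone the span held 3 summits each, with 1 in Cyp2c55 and 1 in Cyp2c70. In the conservative list the stretch from the last summit before the cluster to this one was 948073 bp long and enclosed 10 of the 14 genes. The genome had 44652 intervals between neighbouring conservative summits, with a median of 21756.5 bp, and 171 of them (0.383%) were at least as long. The interval was picked as the longest that touches the cluster. Long intervals also cover more of the genome than their number shows, so that share does not measure how rare such a stretch is. The ranked list of both pools, which has no IDR threshold, placed 5 summits in the span.

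On both sides of the Cyp2c cluster the nearest outer summit carried a motif pointing towards the genes, on the forward strand 24852 bp before the cluster and on the reverse strand 38285 bp after it. Both sites were strong, at percentile 88.6 before the cluster and 95.3 after it.
Before Cyp2c55, chr19:38982155-38982184, forward strand: cacagCCATCCACTAGAGGGCGGGCtttga
After Cyp2c70, chr19:40225608-40225637, reverse strand: aacccACAGCCAGCAGGTGGCAGTGtaggc
Convergent motifs of this kind are known as the usual orientation at CTCF loop anchors. Loops were not measured. The nearest outer motifs pointed inward at 3 clusters, outward at 3 and the same way at 5, and at 3 clusters at least one outer summit had no match.

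**Figure D3:**
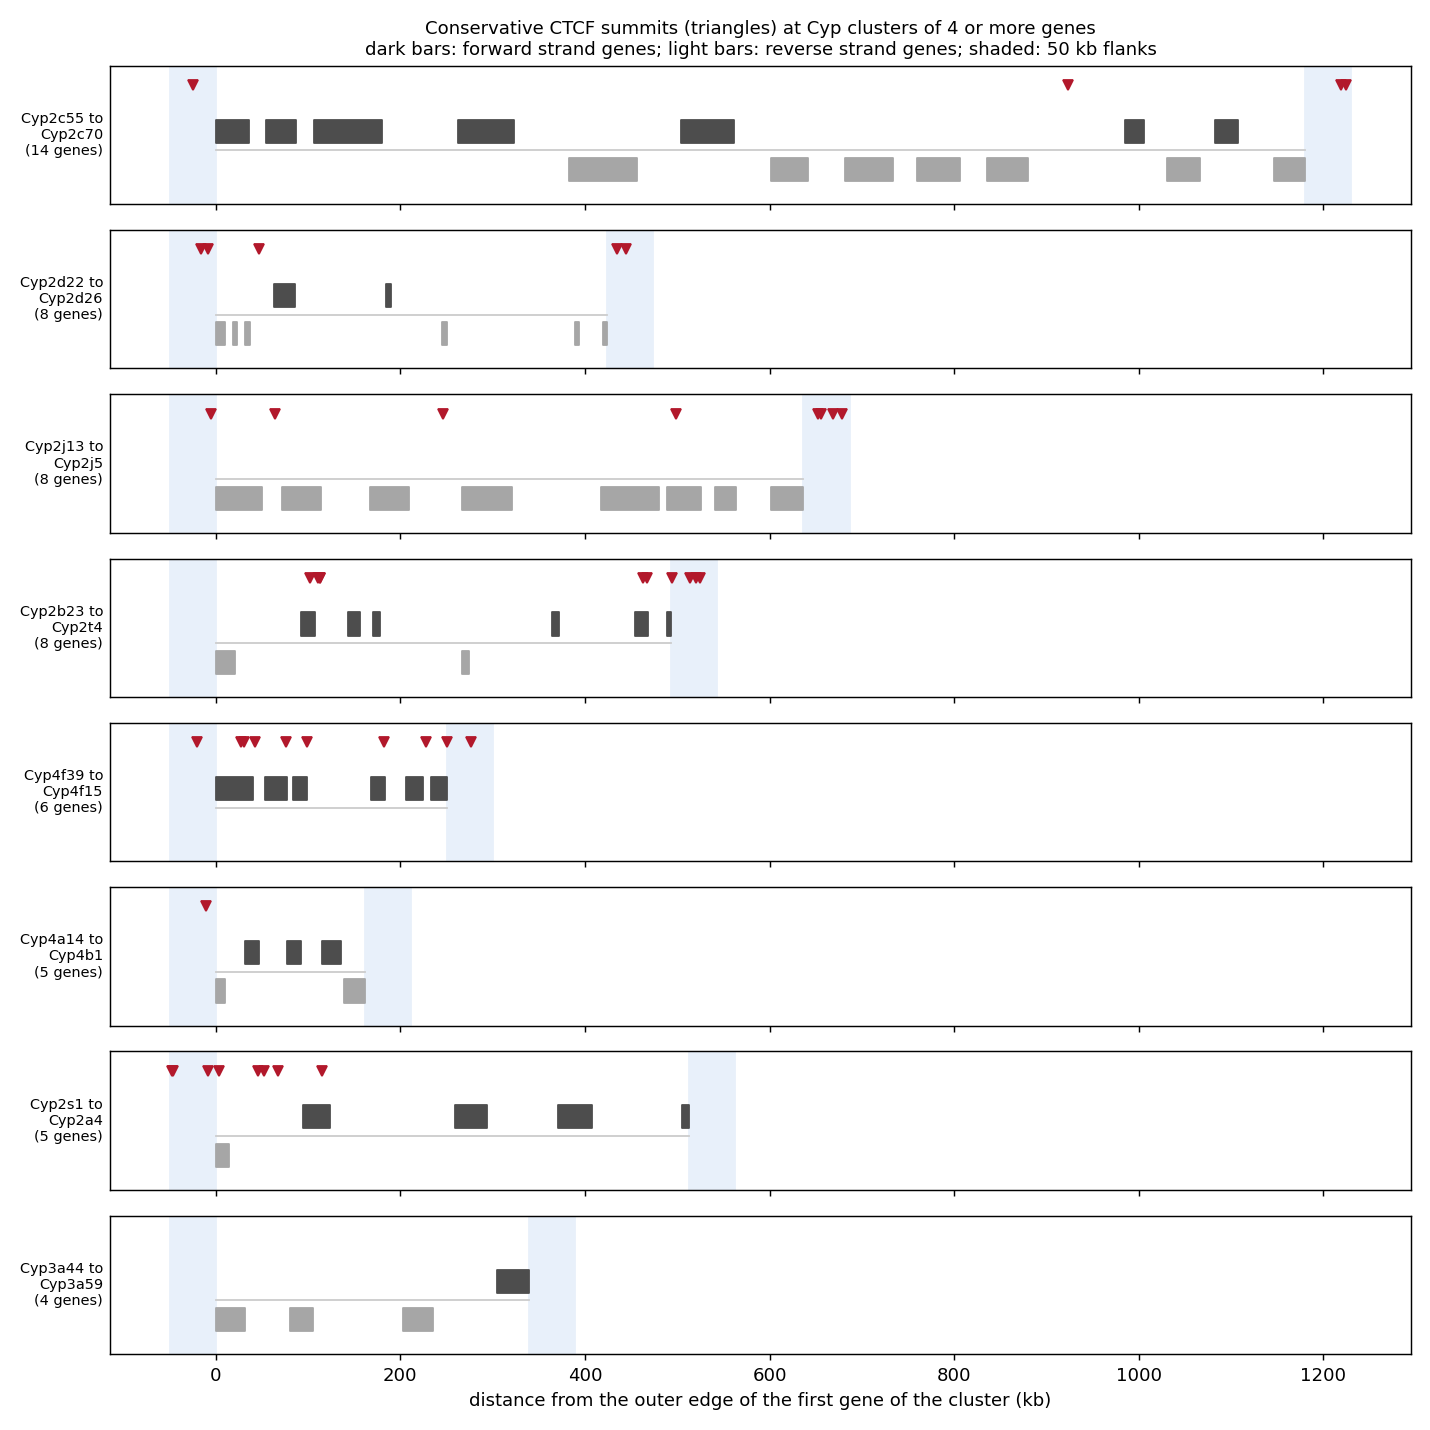
The 8 P450 clusters of 4 or more genes drawn to one scale, as distance in kb from the outer edge of the first gene, with forward-strand genes as dark bars, reverse-strand genes as light bars, conservative CTCF summits as red triangles and the 50 kb flanks shaded. Between the edges the Cyp2c cluster has 1 summit, the cluster from Cyp3a44 to Cyp3a59 has 0, and that from Cyp4f39 to Cyp4f15 has 8.

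The other large clusters of families 2 and 3 were also sparse. The 8 Cyp2d genes (chr15:82370527-82794294) spanned 424 kb with 1 summit, or 2.36 per Mb, and 4 summits in the flanks. The 8 Cyp2j genes, which include arachidonic acid epoxygenases (chr4:96027534-96664154), spanned 637 kb with 3 summits, or 4.71 per Mb, and 5 in the flanks. One of the 3 was in the coding exon of Cyp2j6, at 177 in pool I and 75.8 in pool J. The 4 genes from Cyp3a44 to Cyp3a59, of the family best known for drug oxidation in liver (chr5:145773983-146113287), spanned 339 kb with 0 conservative summits inside and 0 in either flank. The span held 0 in each of the other lists and in the ranked list. The right flank held 2 summits in pool I, 1 in pool J and 1 in the optimal list. The interval that encloses them began in an intron of Cyp3a57, ran for 806513 bp and held 5 P450 genes.

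On chromosome 7 a pair of family 2 clusters neighbour each other. The 5 genes from Cyp2s1 to Cyp2a4 (chr7:25802475-26315088) spanned 513 kb with 5 summits, or 9.75 per Mb. The 8 genes from Cyp2b23 to Cyp2t4 (chr7:26665227-27158668) spanned 493 kb with 6 summits, or 12.2 per Mb. Between them ran an interval of 849823 bp without a conservative summit that enclosed 4 P450 genes, Cyp2b13, Cyp2b9, Cyp2a4 and Cyp2b23. Other protein-coding genes lay there too. The whole stretch from Cyp2s1 to Cyp2t4 held 6 of them, against 1 in each cluster span. The interval was again picked as the longest, and 214 intervals in the genome (0.479%) were at least as long, a share with the same limit as above. Its left end was a summit in an intron of Cyp2b10 and its right end a summit in an intron of Cyp2b19, and both ends carried the same 30 bases on the forward strand. Their identity was seen after the values were known.
Cyp2b10 intron, chr7:25917450-25917479, forward strand: ctttcCCAGACACTAGAGGGCAGGCccacc
Cyp2b19 intron, chr7:26767266-26767295, forward strand: ctttcCCAGACACTAGAGGGCAGGCccacc
The Cyp2b10 site had a signal of 79.9 in pool I and 39.5 in pool J, and the Cyp2b19 site 103 in pool I and 39.7 in pool J. Both were weak, at percentiles 17.5 and 25.5. Cyp2b10 is the classical phenobarbital-induced P450 of mouse liver.

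In family 4 the clusters fell apart into sparse and dense ones. The 5 genes from Cyp4a14 to Cyp4b1 (chr4:115486200-115647723), which include the fatty acid hydroxylases induced through PPAR alpha, spanned 162 kb with 0 summits and 1 in the flanks. The ranked list placed 1 summit there. In contrast, the 6 genes from Cyp4f39 to Cyp4f15 (chr17:32452723-32703352), of a subfamily that hydroxylates long-chain fatty acids and leukotrienes, held 8 summits in 251 kb, or 31.9 per Mb, against 20.0 per Mb in their flanks. The pair of Cyp4f14 and Cyp4f13 held 2 in 42.3 kb, or 47.2 per Mb. Together the 2 Cyp4f clusters held 10 of the 30 summits found inside clusters, and 7 of their 8 genes had a summit in the gene, against 8 of the 62 other clustered genes (12.9%). Without both Cyp4f clusters the remaining 12 had 20 summits inside, or 4.90 per Mb, and 36 in the flanks.

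The Cyp4f sites had a shared position, which was noticed after the values had been seen. Of the 9 Cyp4f genes, 5 had a conservative summit in the 3′ untranslated region, with a motif match on the strand of the gene, and all 5 were also in the optimal, pool I and pool J lists. They were Cyp4f37, Cyp4f17, Cyp4f16, Cyp4f14 and Cyp4f15, and all 5 untranslated exon summits in P450 genes were these. Cyp4f37 was strongest, at 381 in pool I and 251 in pool J and at percentile 98.4, with its summit 945 bp from the 3′ end. Cyp4f17 had 306 in pool I and 170 in pool J at 1191 bp, and Cyp4f16 had 297 in pool I and 137 in pool J at 488 bp. Cyp4f14 had 235 in pool I and 89.1 in pool J at 333 bp, and Cyp4f15 was weakest, at 99.2 in pool I and 39.0 in pool J at 330 bp. The sites are shown because their sequences can be compared between the gene copies, in the orientation of each gene.
Cyp4f37, chr17:32635228-32635257, forward strand: cacagAACGCCAGCAGGGGGCGCTAgaggg
Cyp4f17, chr17:32528953-32528982, forward strand: cacccAGAGCCATCAGAGGGCGCTGcagga
Cyp4f16, chr17:32551292-32551321, forward strand: cacccAGAGCCATCAGAGGGCGCTGcagga
Cyp4f14, chr17:32905388-32905417, reverse strand: taccgAGAGCCAGCAGGGGGCGCTGtgaaa
Cyp4f15, chr17:32703027-32703056, forward strand: cgcagAATACCAGTAGGGGGCGCTGgagga
The 30 bases of Cyp4f17 and Cyp4f16 were identical. Of the 20 motif bases, 17 in Cyp4f14, 16 in Cyp4f15 and 15 in both Cyp4f17 and Cyp4f16 equalled those of Cyp4f37. In Cyp4f39, Cyp4f40, Cyp4f13 and Cyp4f18 no window of the last 3000 bp passed the motif threshold on the gene's strand, and no conservative summit lay there. Cyp4f18, the one single gene of the subfamily, had a summit 181 bp beyond its 3′ end (chromosome 8, position 71988301), with a motif match on its own strand and signal values of 93.7 in pool I and 44.0 in pool J. Cyp4f39 had a summit 1516 bp beyond its 3′ end, at percentile 87.7, and Cyp4f40 one 3688 bp beyond, at percentile 71.5. In both the motif match lay on the strand opposite to the gene.

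**Figure D4:**
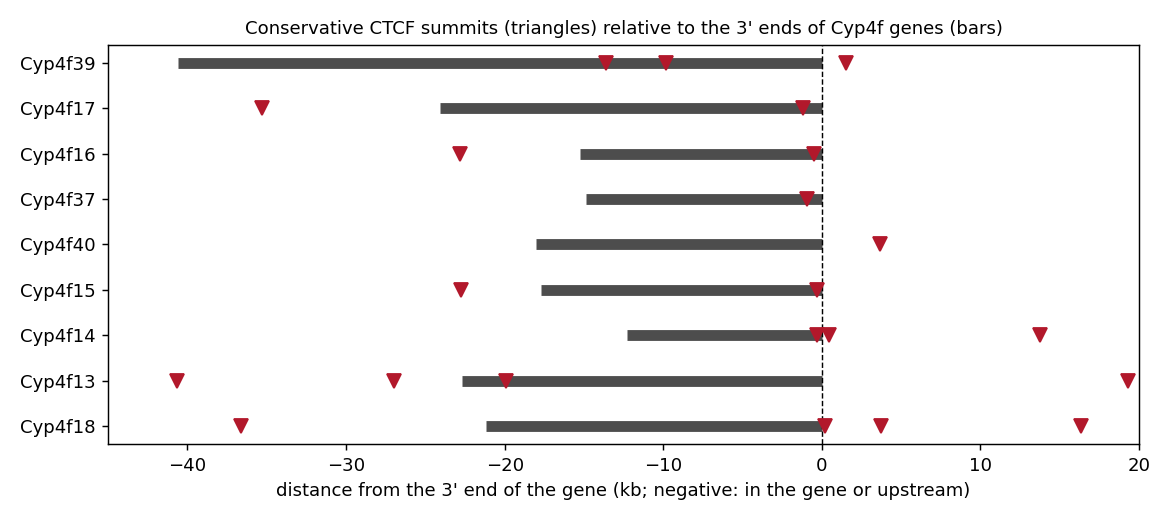
The 9 Cyp4f genes drawn from their 3′ ends (dashed line at 0), with distance in kb along each gene's own direction, gene bodies as bars and conservative CTCF summits as red triangles. Summits lie within 1191 bp upstream of the 3′ end in Cyp4f17, Cyp4f16, Cyp4f37, Cyp4f15 and Cyp4f14, and in the last 3000 bp of no other Cyp4f gene. Beyond the end, the nearest summit lies at 181 bp in Cyp4f18, 456 bp in Cyp4f14, 1516 bp in Cyp4f39 and 3688 bp in Cyp4f40.

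Recent duplication leaves near-identical copies, to which short reads cannot be assigned singly, and the treatment of such reads is not given in the sources used here. As a measure of it, stretches of 31 bases that occur more than once on their own chromosome were counted. They made up a median of 21.4% of clustered genes (0.485% to 64.4%) and of 3.01% of single genes (0% to 43.3%, highest in Cyp21a1). In the cluster spans they made up 29.6%, against 13.2% of the chromosomes that hold the clusters. Per Mb of stretches found once, the spans had 9.74 summits and those chromosomes 23.5, against 6.85 and 20.4 per Mb of all bases. Among clusters, the share was 35.9% for Cyp2c, 35.8% from Cyp3a44 to Cyp3a59 and 36.0% from Cyp2s1 to Cyp2a4. It was 14.6% in the denser cluster from Cyp4f39 to Cyp4f15. Other clusters went the other way. The share was 32.4% from Cyp2b23 to Cyp2t4, with 12.2 summits per Mb. It was 10.1% in the Cyp11b1 and Cyp11b2 pair and 0.597% in the Cyp26c1 and Cyp26a1 pair, both with 0 summits. Within the cluster from Cyp2s1 to Cyp2a4 the share was 4.82% in Cyp2s1 and 10.7% in Cyp2b10, which each had a summit in the gene. It was 37.1% in Cyp2b13, 35.0% in Cyp2b9 and 59.7% in Cyp2a4, which had none within 50 kb. Elsewhere, Cyp2b23 had 5.17% and no summit within 50 kb, while Cyp4f37 with 29.9% and Cyp4f16 with 26.2% each had one in the gene. The part of read assignment in the counts was not tested beyond these values.

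The motif itself was also sparser inside the clusters. Matches at the stricter threshold came to 2.74 per Mb in the cluster spans, 7.86 in their 50 kb flanks and 4.40 over the chromosomes that hold clusters. Of 12 such matches in the spans 7 had a conservative summit (58.3%), of 11 in the flanks 10 had one, and over those chromosomes 75.8% did. Single genes had 4.20 matches per Mb in the gene and 7.50 in their flanks, and all 18 of the matches in those flanks had a summit. The single strict match in the Cyp2c span and the single one from Cyp3a44 to Cyp3a59 had none.

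Peaks called within 50 kb of P450 genes had a higher median signal than all conservative peaks, but those at P450 promoters had a lower one. The 188 peaks within 50 kb had a median signal of 330, against 269 for all conservative peaks, and 27 of them (14.4%) stood above percentile 90. A motif match was present in 145 of the 188 (77.1%), against 72.3% of all. The 37 peaks in P450 genes had a median signal of 319, and the 5 promoter peaks one of 135, with a median percentile of 22.9. Peaks nearest to clustered genes had a median signal of 325 and those nearest to single genes 336. Of the 73 peaks nearest to clustered genes only 30 lay inside a cluster span, so the first median does not describe the peaks inside clusters. The signals of those 30 ran from 89.3 to 630, and their median was not computed. Outside the Cyp4f clusters the signals inside spans ran from 89.3 to 501, on both sides of the 269 of all conservative peaks. A higher median was thus not shown for peaks inside clusters.

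Some of the sites share a longer sequence. The 16 bases CCAGAAGAGGGCATCA, searched on both strands within 50 bp of the summit, were the stretch of that length shared by the largest number of motif sites near P450 genes. They resemble the CTCF motif of B2 short interspersed repeats, a family known to carry CTCF sites in rodents. They were present at 11 of the 188 peaks (5.85%), against 3.38% of all conservative peaks. Of these, 6 were nearest to a clustered gene and 5 to a single one, and the stretch was chosen after the sequences had been seen. Because it was picked for its count at these same sites, its higher share near P450 genes cannot be read as enrichment. The closest to genes lay in introns of Cyp39a1 and Cyp4x1 and 456 bp beyond the end of Cyp4f14. The strongest was that of Cyp39a1, with a joint signal of 492, and a weak one stood 8576 bp outside Cyp2s1, with 86.8.
Cyp39a1 intron, chr17:43701212-43701241, forward strand: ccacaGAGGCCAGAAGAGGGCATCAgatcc
Cyp4f14 end, chr17:32904592-32904621, forward strand: tcactGAAGCCAGAAGAGGGCATCAgatcc
Outside Cyp2s1, chr7:25793879-25793908, reverse strand: ctgcaGAGGCCAGAAGAGGGCATCAgatcc

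Signal values near P450 genes were higher in pool I than in pool J for the median peak, as they were over all peaks. The log2 ratio of pool I over pool J had a median of 0.98 (SD 0.35 over 188 peaks), against 1.09 (SD 0.39) over all conservative peaks. In the ranked list it was 1.02 over 452 peaks near P450 genes and 1.03 over all. For the 37 peaks in P450 genes the median was 1.08.

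**Figure D5:**
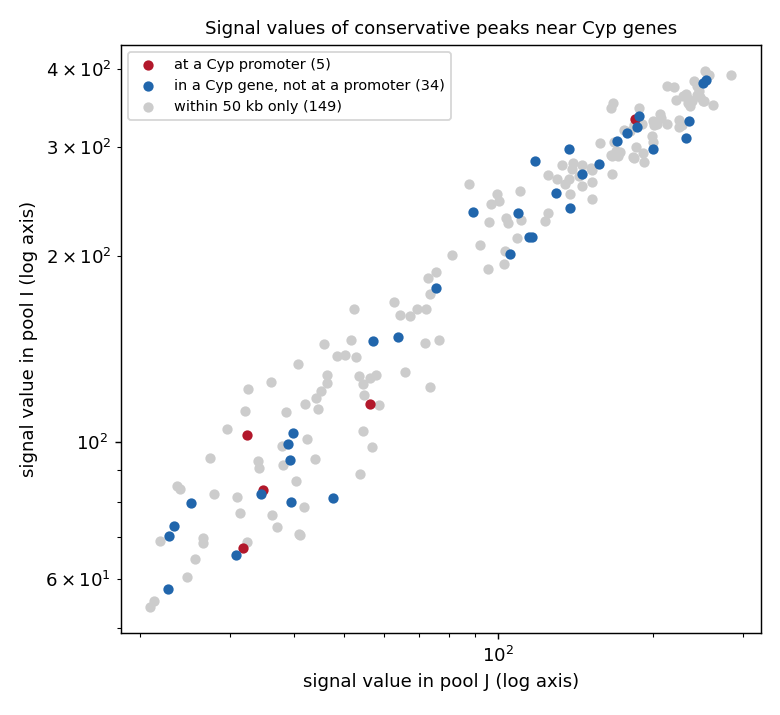
Signal value in pool I against that in pool J, on log axes, for the 188 conservative peaks within 50 kb of a P450 gene, with the 5 promoter peaks in red, 34 other peaks in P450 genes in blue and 149 peaks near but not in a gene in grey. Of the promoter peaks that of Cyp1b1, at 332 in pool I and 185 in pool J, lies among the strong peaks and the other 4 are at 115 or below in pool I.

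Genes that work with or control the P450 enzymes are set beside the shares of all protein-coding genes, 20.8% with a promoter summit, 45.8% with a summit in the gene and 86.4% with one within 50 kb. Of 7 genes listed as redox partners, most of which pass electrons to P450 enzymes, 1 had a promoter summit, the cytochrome b5 reductase Cyb5r3 (signal 185, percentile 35.5). A summit lay in 4 of the 7 and within 50 kb of all 7. Of 21 transcriptional regulators 4 had a promoter summit. These were Nr1h3, an oxysterol receptor (323), Nr1i2, the pregnane X receptor that induces Cyp3a genes (279), Ahrr, the repressor of the aryl hydrocarbon receptor (252), and Nr1h2, the other oxysterol receptor (91.4). A summit lay in 16 of the 21 and within 50 kb of all 21. Of the P450 genes whose symbols do not follow the pattern, Cyp51, Tbxas1 and Ptgis alone were listed. They had 0 promoter summits, and all 3 had a summit in the gene.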

How the data were processed

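CTCF peaks from 2 pools (2 technical libraries each, merged by the authors) were read from the 4 deposited IDR-thresholded lists and the ranked list of both pools. The signal value and the score deposited by the authors are per peak. The score is a scaled IDR, with a lowest value of 540. The deposited ranked list also gives the signal in each pool, and its first input was identical to a ranked pool I peak for 84.5% of peaks and its second to a ranked pool J peak for 61.8%, with 0% crosswise. Assembly mm10 is per the labels. The aligner, peak caller, their versions, the control and the treatment of reads that map to several places were not given in the sources used here.

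Genes came from GENCODE M21 (basic set), sequences from GRCm38.p6. Summits were counted with Python 3.11.15, numpy 2.4.6 and pandas 2.3.3, and plotted with matplotlib 3.10.9. Counting and motif steps were tested on simulated data. No test and no p-value was used. The members, gene lists and cluster rule were chosen with earlier results of these data known. Named were all genes with a conservative promoter summit or a promoter call that differs between lists, those with the most summits in the gene, the 5 strongest nearby peaks, clusters of 4 or more genes, and listed partners with a promoter summit. Other names are said to be chosen after seeing values, or illustrate counts. Alternatives were the other lists, an IDR of at most 0.01, other windows, cluster rules and motif thresholds. CpG content, length bins, repeated stretches, summit intervals and motif density were added after seeing the data.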

Additional observations from a re-analysis of the deposited data

How the results depend on the processing

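No paired analysis was possible because the lists join the libraries of each pool and no test was run. The number of P450 genes with a promoter summit, 5 in the main count, was 13 in pool I, 2 with a window of 500 bp and 15 with one of 5000 bp, where all protein-coding genes had 15.7% and 38.8%. The share of clustered genes with a promoter summit was 2.86% in pool I and 0% when a cluster needed 3 or more members, and that of single genes was 45.8% in pool I. Summits per Mb rose with the longer pool I list to 12.6 in the spans and 47.9 in the flanks. The stricter motif threshold left a match at 19.7% of peaks near P450 genes, against 15.4% of all. The cause of these shifts was not tested, beyond the longer list and the changed windows themselves. The counts in the gene and within 50 kb stayed within 1.5 times under every alternative run, and clustered genes had lower promoter and gene shares than single genes in the other lists, at an IDR of at most 0.01 and under the other cluster rules. That split was not computed for the other promoter windows. A gap of at most 500 kb, added after seeing the data, gave 10 clusters with 6.59 summits per Mb inside and 39.0 in the flanks. Read depth is unknown, so a gene without a peak is one without a call at this depth, not one shown to be unbound.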
